A study of Homo sapiens with 8 samples.

Results

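The 5 genes CAPRIN2, CDCA7L, IL16, MACC1 and DIPK1C were listed with opposite signs in K-562 cells labelled TASOR KO and in K-562 cells that carried a FLAG-TASOR2 transgene, each set against the same control libraries. MACC1, CDCA7L and IL16 were lower in the knockout and higher with FLAG-TASOR2. CAPRIN2 and DIPK1C were higher in the knockout and lower with FLAG-TASOR2. The genes were chosen by name, with those signs known, among 14 genes of opposite sign and 100 genes listed in both of the authors' deposited tables. The signs and the fold changes of these comparisons are therefore a description, and no test of them was made. In all, 1221 genes were listed in at least 1 of the 3 tables.

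K-562 is an established human erythroleukaemia line, which the labels call a lymphoblast. Ribosomal RNA-depleted total RNA was sequenced in 8 libraries, 2 for each of 4 groups. The controls were parental wild-type cells given a negative guide RNA. The knockout cells were TASOR KO. A further group was TASOR KO with a FLAG-TASOR transgene, and the last was parental wild type with a FLAG-TASOR2 transgene and no guide named. Per the labels' protocols, Cas9 plasmid transfection was followed by growth from single sorted cells, and lentivirus then delivered either an empty puromycin-resistance vector or a FLAG-tagged transgene. The sources used here do not state the promoter of the transgenes or the number of clones. Clone, guide treatment and transgene cannot be told apart in these groups. Of 12 erythroid markers of K-562, the embryonic globin gene HBE1 was listed in the FLAG-TASOR table and the globin genes HBZ, HBA1 and HBA2 in the FLAG-TASOR2 table, all as higher. No T cell, B cell or fibroblast and epithelial marker was listed. A listing needs a difference from the controls, so an unlisted marker has no value and says nothing on cell identity. The derived control level was 635 CPM for HBE1 and between 284 and 718 CPM for HBZ, HBA1 and HBA2. The label could be checked only through these globin levels.

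TASOR is the scaffold subunit of HUSH, the human silencing hub, which works with the histone methyltransferase SETDB1 and the ATPase MORC2 to repress LINE-1 retrotransposons and some genes. TASOR2 is its paralog. Gene expression changes that follow loss of a silencing complex can be direct, at a gene it occupies, or arise downstream through other genes, and RNA levels do not separate these.

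The deposited tables listed 268 of 13992 tested genes for the knockout, 884 of 14001 for FLAG-TASOR2 and 261 of at least 13957 for FLAG-TASOR in the knockout. That is 1.92%, 6.31% and at most 1.87% of the genes tested. As read from the values, a gene was listed where its unadjusted p was under 0.05, its log2 fold change was beyond 1 in either direction and its log2 mean level was above 1. The level is in counts scaled to library size (CPM). By direction, 0.979% of tested genes had a higher and 0.936% a lower listing in the knockout, and 2.56% a higher and 3.76% a lower one with FLAG-TASOR2. The 5 genes were selected through these listings, so nothing is read from their count against these shares. A deposited adjusted p below 0.05 was reached by 0.00715% of tested genes in the knockout and 0.0357% with FLAG-TASOR2. None of the 14 opposed genes was among them (0 genes), so these genes are described as listed higher or lower. All 14 had an unadjusted p below 0.05 in both tables of the authors' edgeR-type F-test, as the listing rule requires of every listed gene. TASOR itself was listed as lower in the knockout and TASOR2 as higher with FLAG-TASOR2, by log2 values of -1.08 and 2.26 per the authors' deposited tables. TASOR was not listed in the FLAG-TASOR table, so the label of that group could not be checked by its own gene.

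No value per library was used, since the tables hold 1 fold change and 1 mean level per gene. A level for each group was derived from these, with the mean taken as the average of 2 control and 2 altered libraries. It is approximate, in CPM and not divided by gene length. The control level of a gene can be derived separately from each table that lists it. Over the 100 genes in both tables the log2 ratio of the control levels (knockout table over FLAG-TASOR2 table) had a median of 0.11, with values between -0.19 and 0.31 from the tenth to the ninetieth percentile. For the 5 genes it lay between -0.44 and 0.10. In bulk RNA, fewer cells that express a gene and less RNA per cell cannot be told apart.

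**Figure D1:**
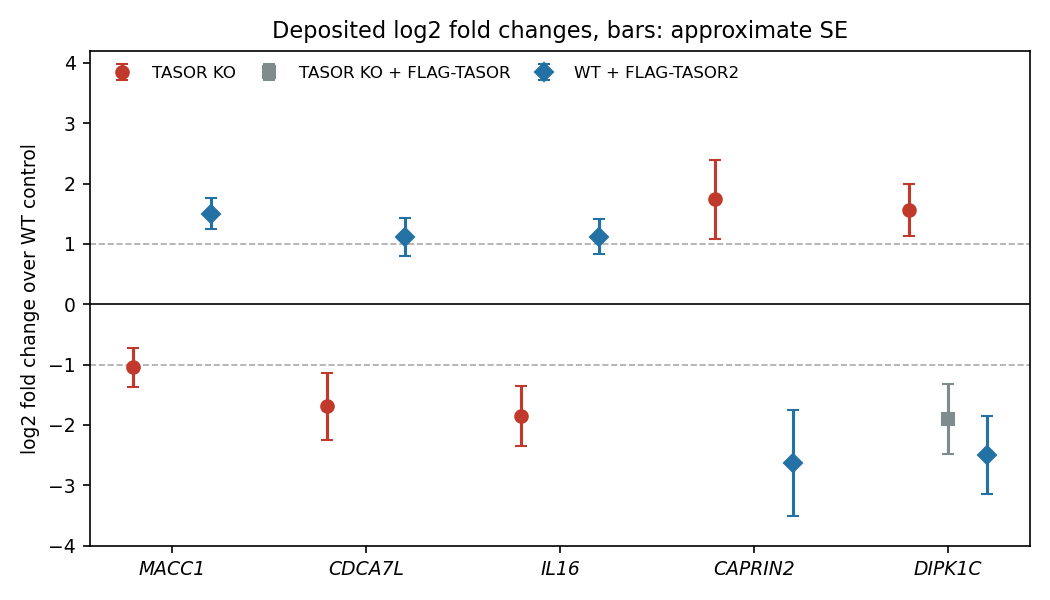
Log2 fold change over the wild-type controls (y axis) for the 5 genes (x axis) in each deposited table that lists them, with bars for the approximate SE and dashed lines at the listing limit of 1 in either direction. MACC1, CDCA7L and IL16 lie below 0 in the knockout and above 0 with FLAG-TASOR2, CAPRIN2 and DIPK1C lie the other way, and DIPK1C alone has a FLAG-TASOR value, at -1.90.

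**Figure D2:**
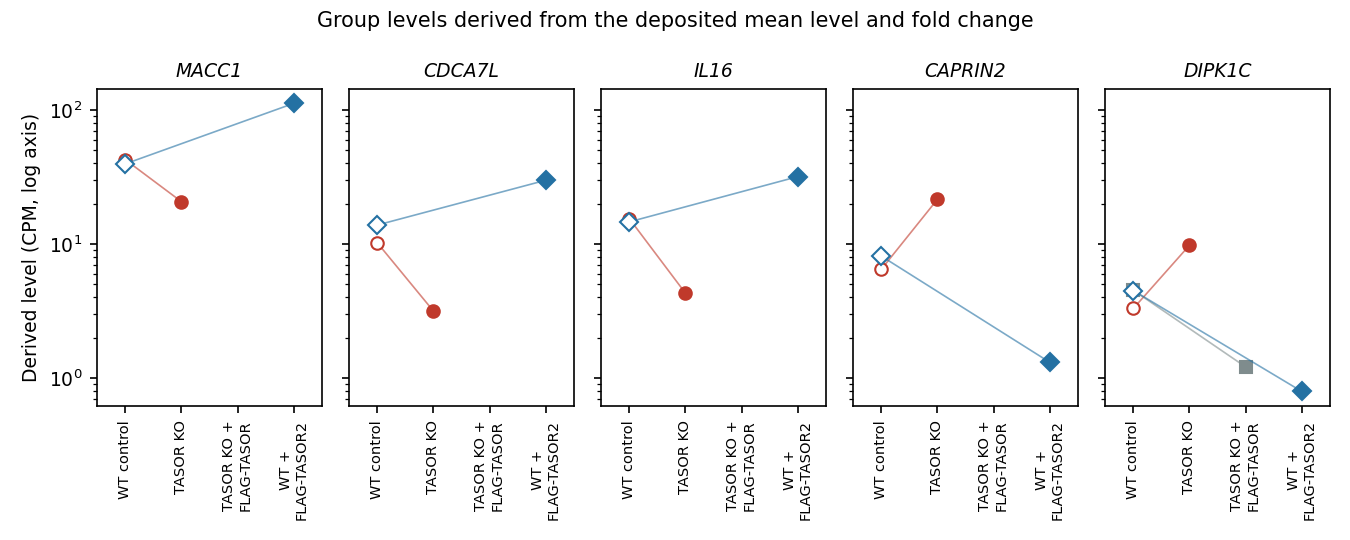
Derived level in CPM (log axis) in each group for the 5 genes, with open symbols for the control level derived from each table and filled symbols for the altered group of the same table. The control level lies between the knockout and FLAG-TASOR2 levels for each of the 5 genes, an order that follows from the opposite signs they were chosen for. An empty FLAG-TASOR position is a gene not listed there.

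MACC1 encodes a regulator of transcription that is known for promoting expression of the hepatocyte growth factor receptor MET. It lies on chromosome 7 at 20134655 to 20217404, on the minus strand, with 9 merged exons (GENCODE 29, GRCh38, the same assembly as hg38). Its derived level was 42.6 CPM in the controls and 20.7 CPM in the knockout from the knockout table. From the FLAG-TASOR2 table it was 39.7 CPM in the controls and 112 CPM with the transgene. MACC1 was thus lowest in the knockout and highest with FLAG-TASOR2, with both control estimates between them. This order follows from the opposite signs for which the genes were chosen. The authors' deposited knockout table gave MACC1 a log2 fold change of -1.04 with an approximate SE of 0.32, at p 0.0209 and adjusted p 1.00. That is near the listing limit, at rank 261 of 268 by size. The authors' deposited FLAG-TASOR2 table gave 1.5 with an approximate SE of 0.26, at p 0.00119 and adjusted p 0.163. This was the smallest p of the 5 genes there and rank 97 of 884.

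The gene next to MACC1 was listed too. MACC1-DT, a non-coding transcript that starts in the opposite direction, lies across a gap of 172 bases that separates the annotated starts. The authors' deposited knockout table had MACC1-DT as lower by a log2 change of -3.40 (approximate SE 1.19, p 0.0328), a derived 3.91 CPM in controls and 0.369 CPM in knockout cells. The authors' deposited FLAG-TASOR table had it as lower as well, at -2.58 (approximate SE 0.73), with 3.77 CPM in controls and 0.631 CPM in the altered cells. MACC1 was not listed in that table, and MACC1-DT was not listed with FLAG-TASOR2. The divergent pair was therefore listed together in the knockout table and apart in the others. MACC1 also overlaps the antisense gene MACC1-AS1, and no source used here says if reads were counted by strand.

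In the knockout, 1.92% of all tested genes were listed, against 6.31% with FLAG-TASOR2 and at most 1.87% with FLAG-TASOR. The 14 genes fixed as the MET pathway had 1 listed member there and 0 in each of the other tables. This was MET itself, which the authors' deposited knockout table put at -2.25 on the log2 scale (approximate SE 0.63, p 0.0147), with a derived level of 17.3 CPM in controls and 3.64 CPM in the knockout. MET was listed as lower beside MACC1 in the knockout. It was not listed with FLAG-TASOR2, where MACC1 was listed as higher. An unlisted gene has no value, and counts of 1 and 0 among 14 genes are too small to read.

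CDCA7L encodes a nuclear protein that binds MYC and is also known as a repressor of the monoamine oxidase gene MAOA. It lies on chromosome 7 at 21900900 to 21946084, on the minus strand, with 12 merged exons, 1.68 Mb from MACC1. Its derived level was 10.2 CPM in controls and 3.16 CPM in the knockout from the knockout table, against 13.9 CPM in controls and 29.9 CPM with FLAG-TASOR2 from the FLAG-TASOR2 table. The control estimates differed by a log2 ratio of -0.44, and both lay between the altered groups, as the signs require. That gap is smaller than the approximate SE of the knockout change and larger than that of the FLAG-TASOR2 change. Both estimates come from the same control libraries, so an SE does not measure the gap. The authors' deposited knockout table gave CDCA7L a log2 fold change of -1.69 with an approximate SE of 0.56, at p 0.0271 and adjusted p 1.00. The authors' deposited FLAG-TASOR2 table gave 1.11 with an approximate SE of 0.32, at p 0.0127 and adjusted p 0.257. That is near the listing limit, at rank 812 of 884 by size. DNAH11 overlaps CDCA7L on the opposite strand and was not listed. None of the 14 genes fixed as the CDCA7 family and MYC network, MYC and MAOA among them, was listed in any of the 3 tables (0 genes). Over all tested genes the listed share was 1.92% in the knockout, 6.31% with FLAG-TASOR2 and at most 1.87% with FLAG-TASOR.

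IL16 encodes a precursor from which caspase-3 releases a secreted cytokine that binds CD4, while the remaining part acts in the nucleus. It lies on chromosome 15 at 81159575 to 81314058, on the plus strand, with 25 merged exons. Its derived level was 15.5 CPM in controls and 4.30 CPM in the knockout from the knockout table. From the FLAG-TASOR2 table it was 14.6 CPM in controls and 31.8 CPM with the transgene. The order of groups was that of MACC1 and CDCA7L, as the signs require, and the control estimates were within a log2 ratio of 0.08. The log2 fold change of IL16 in the authors' deposited knockout table was -1.85, with an approximate SE of 0.49, p 0.0116 and adjusted p 1.00. In the authors' deposited FLAG-TASOR2 table it was 1.12, with an approximate SE of 0.29, p 0.00884 and adjusted p 0.241. Of the 10 genes fixed as its receptor, processing and cytokine neighbours, IL18, another cytokine activated by a caspase, was the 1 listed. It was listed with FLAG-TASOR2, where 6.31% of all tested genes were. The authors' deposited FLAG-TASOR2 table had IL18 as higher, by a log2 change of 1.66 (approximate SE 0.54).

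Genes at both ends of IL16 were listed in the knockout, in opposite directions. CFAP161, 10.4 kb upstream, was lower by a log2 change of -2.41 (approximate SE 0.77) per the authors' deposited table, from a derived 14.6 CPM to 2.74 CPM. STARD5, which encodes a lipid transfer protein and overlaps IL16 on the opposite strand, was higher by 1.41 (approximate SE 0.53) per the authors' deposited table, from 2.43 CPM to 6.47 CPM. Neither was listed with FLAG-TASOR2. Without knowledge of strand in the counting, reads in the overlap could belong to either gene.

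CAPRIN2 encodes an RNA-binding protein with a role in canonical Wnt signalling, where it promotes phosphorylation of the co-receptor LRP6. It lies on chromosome 12 at 30709552 to 30754951, on the minus strand, with 20 merged exons and no overlapping gene. Its derived level was 6.48 CPM in controls and 21.6 CPM in the knockout from the knockout table. From the FLAG-TASOR2 table it was 8.13 CPM in controls and 1.31 CPM with the transgene. The order was the reverse of that of the preceding genes, highest in the knockout and lowest with FLAG-TASOR2, as its signs require. The authors' deposited knockout table gave CAPRIN2 a log2 fold change of 1.74 with an approximate SE of 0.66, at p 0.0440 and adjusted p 1.00. That p is close to the listing limit, at rank 248 of 268. The authors' deposited FLAG-TASOR2 table gave -2.63 with an approximate SE of 0.87, at p 0.0235 and adjusted p 0.318. The SEs of CAPRIN2 were the largest of the 5 genes in both tables.

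None of the 8 genes fixed as Caprin relatives and stress granule partners was listed in any of the 3 tables (0 genes). Of 27 Wnt receptors and core pathway genes, 1 was listed in the knockout and 2 with FLAG-TASOR2, all as lower, and 0 with FLAG-TASOR. Nothing is read from such small counts. Over all tested genes, 0.936% were listed as lower in the knockout and 3.76% with FLAG-TASOR2. The Wnt receptor gene FZD7 was listed in both, with log2 changes of -1.60 (approximate SE 0.62) and -1.53 (0.61) per the authors' deposited tables. It thus had the same sign in both, unlike CAPRIN2. FZD2, another Wnt receptor gene, was listed with FLAG-TASOR2 alone, at -3.67 (approximate SE 1.03) per the authors' deposited table. Its derived level was 3.81 CPM in controls and 0.299 CPM with the transgene, and its log2 mean level of 1.04 is near the listing limit of 1.

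DIPK1C, named FAM69C in GENCODE 29, encodes a member of a family of kinase-like membrane proteins of the secretory pathway. It lies on chromosome 18 at 74434099 to 74457944, on the minus strand, with 5 merged exons and no overlapping gene. It was the 1 gene of the 5 listed in all 3 tables. Of the 268 genes listed in the knockout, 60 were also listed with FLAG-TASOR, so nothing is read from 1 of 5. From the knockout table its derived level was 3.30 CPM in controls and 9.79 CPM in the knockout. From the FLAG-TASOR2 table it was 4.49 CPM in controls and 0.794 CPM with the transgene, and the FLAG-TASOR table gave 4.51 CPM in controls and 1.21 CPM in knockout cells with FLAG-TASOR. DIPK1C was thus above all 3 control estimates in the knockout alone and below them in both transgene groups. For the knockout and FLAG-TASOR2 this order follows from the opposite signs for which the gene was chosen.

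The authors' deposited knockout table gave DIPK1C a log2 fold change of 1.57 with an approximate SE of 0.43, at p 0.0131 and adjusted p 1.00. The authors' deposited FLAG-TASOR table gave -1.90 with an approximate SE of 0.59, at p 0.0209 and adjusted p 0.999. In the authors' deposited FLAG-TASOR2 table the value was -2.50 with an approximate SE of 0.65, at p 0.00838 and adjusted p 0.235. Of the 60 genes listed in both the knockout and the FLAG-TASOR table, DIPK1C was the 1 with opposite signs, and 1.26% of the genes tested, at most, were listed as lower with FLAG-TASOR. The knockout and FLAG-TASOR cells were not compared with each other directly, and the difference between them was not tested. Of the 10 genes fixed as relatives among the secretory-pathway kinase-like proteins, PKDCC alone was listed, against 6.31% of all tested genes with FLAG-TASOR2. PKDCC was lower with FLAG-TASOR2 by a log2 change of -4.10 (approximate SE 1.05) per the authors' deposited table. Its derived level was 4.58 CPM in controls and 0.268 CPM with the transgene. Its log2 mean level of 1.28 is near the listing limit of 1.

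The other 4 genes were not listed in the FLAG-TASOR table and have no value there. From the lower of the control estimates, the mean log2 level with FLAG-TASOR at 0 would still be 1.70 for CAPRIN2, 2.35 for CDCA7L, 2.87 for IL16 and 4.31 for MACC1. Each is above the level limit of 1, so by this derivation these genes were left out by the limit on p or on fold change. Absence from a table leaves the size of any change unknown.

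The distance between the altered groups joins both comparisons for each gene. On the log2 scale the FLAG-TASOR2 change minus the knockout change was 2.54 for MACC1, 2.80 for CDCA7L and 2.97 for IL16. It was -4.37 for CAPRIN2 and -4.07 for DIPK1C. If the changes were independent, the SE of these differences would be 0.41, 0.64, 0.57, 1.10 and 0.78, in the order of the genes as named. The common controls make this SE approximate, and the difference was not tested. The genes were chosen for opposite signs, and the tables list only log2 changes beyond 1 in either direction. That rule sets a floor under each distance, so its size against the SE is not read as support. For CAPRIN2 and DIPK1C the change with FLAG-TASOR2 was larger in size than that in the knockout, as it was for all 8 opposed genes that were higher in the knockout. Of the 6 opposed genes that were lower in the knockout, 3 had the larger change with FLAG-TASOR2, MACC1 among them and CDCA7L and IL16 not. These counts rest on the fold changes by which the genes were chosen. The matching share over the 100 genes listed in both tables was not counted, so no asymmetry is read from the counts.

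**Figure D3:**
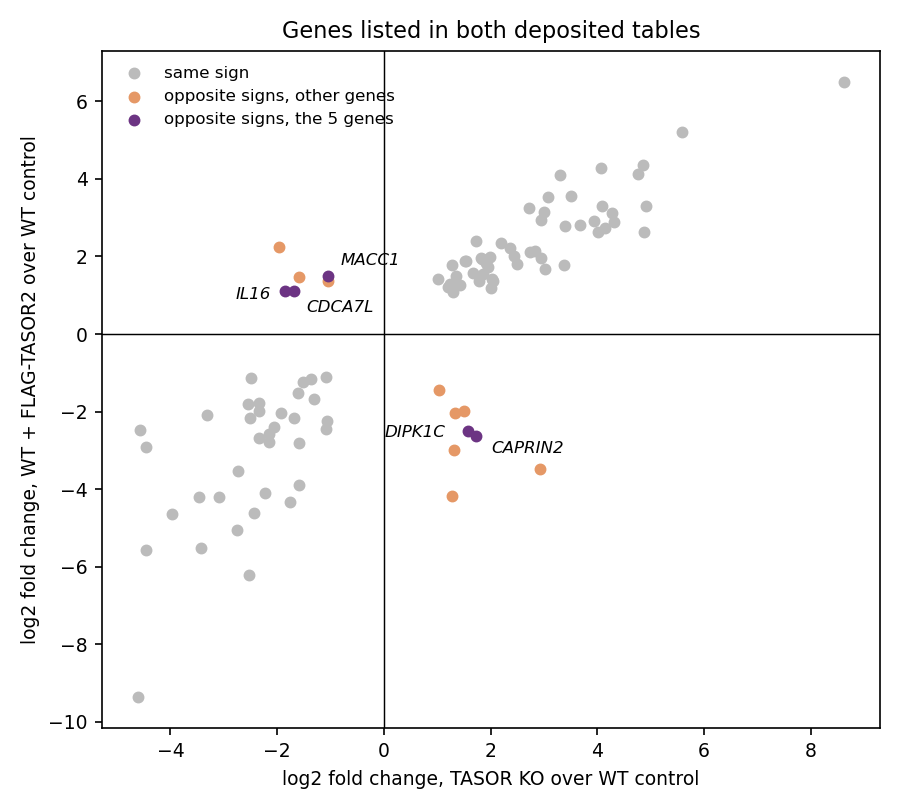
Log2 fold change with FLAG-TASOR2 (y axis) against that in the knockout (x axis) for the 100 genes listed in both deposited tables, each over the same controls. The 14 genes of opposite sign lie in the upper left and lower right, with the 5 genes in purple. No gene lies within 1 of 0 on either axis, because the tables list none there.

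Among genes listed in both tables, the gene nearest to each by Euclidean distance over the 2 log2 fold changes (99 genes compared) was CDCA7L for IL16 and IL16 for CDCA7L, at a distance of 0.16. CAPRIN2 and DIPK1C were nearest to each other at 0.21. The long non-coding RNA LINC00534 was nearest to MACC1 at 0.13, with log2 changes of -1.05 in the knockout and 1.37 with FLAG-TASOR2 per the authors' deposited tables. With each change divided by its approximate SE, 1 of the 5 nearest genes was the same, CDCA7L for IL16. The 5 genes were chosen by these same changes, and the nearest gene was of opposite sign in each case. Each unscaled distance was smaller than the approximate SEs of the changes it compares. Which gene is nearest is therefore not resolved, and the likeness is a description only.

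All 5 genes are protein-coding and lie on 4 chromosomes. Their median span was 45.4 kb and their median number of merged exons 12, against 65.5 kb and 8 over the 100 genes in both tables. Divided by merged exon length, the control level from the knockout table was 4.31 CPM per kb for MACC1, 2.51 for CDCA7L, 1.28 for IL16, 0.859 for DIPK1C and 0.772 for CAPRIN2. From the FLAG-TASOR2 table DIPK1C and CAPRIN2 were at 1.17 and 0.968 CPM per kb, in the same order. The control level of CAPRIN2 from the FLAG-TASOR2 table is above that of DIPK1C from the knockout table, so their order is not firm.

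Within 1 Mb of the 5 genes, 8 other genes were listed in at least 1 table. Over all tested genes the listed share was 1.92% in the knockout, 6.31% with FLAG-TASOR2 and at most 1.87% with FLAG-TASOR. None of the 8 was listed in both the knockout and the FLAG-TASOR2 table (0 genes). Of the 1221 genes listed in any table, 100 were listed in both, so nothing is read from 0 of 8. A neighbour missing from a table has no value there, so the 0 does not show that the neighbours lacked the pattern. CAPRIN2 had no listed neighbour among 8 protein-coding genes in the window. DIPK1C had ZNF407-AS1, 134 kb away, which the authors' deposited knockout table had as higher, by a log2 change of 1.33 (approximate SE 0.43). Near CDCA7L, STEAP1B-AS1 and the cytokine gene IL6 were listed as higher with FLAG-TASOR2, by log2 changes of 3.54 (approximate SE 0.67) and 1.66 (0.61) per the authors' deposited table. Near IL16, CEMIP and FAH were listed as lower with FLAG-TASOR2, by log2 changes of -2.31 (approximate SE 0.88) and -1.32 (0.37) per the authors' deposited table, against the direction of IL16. In a window of 2 Mb, MACC1 and CDCA7L are themselves neighbours of the same pattern.

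**Figure D4:**
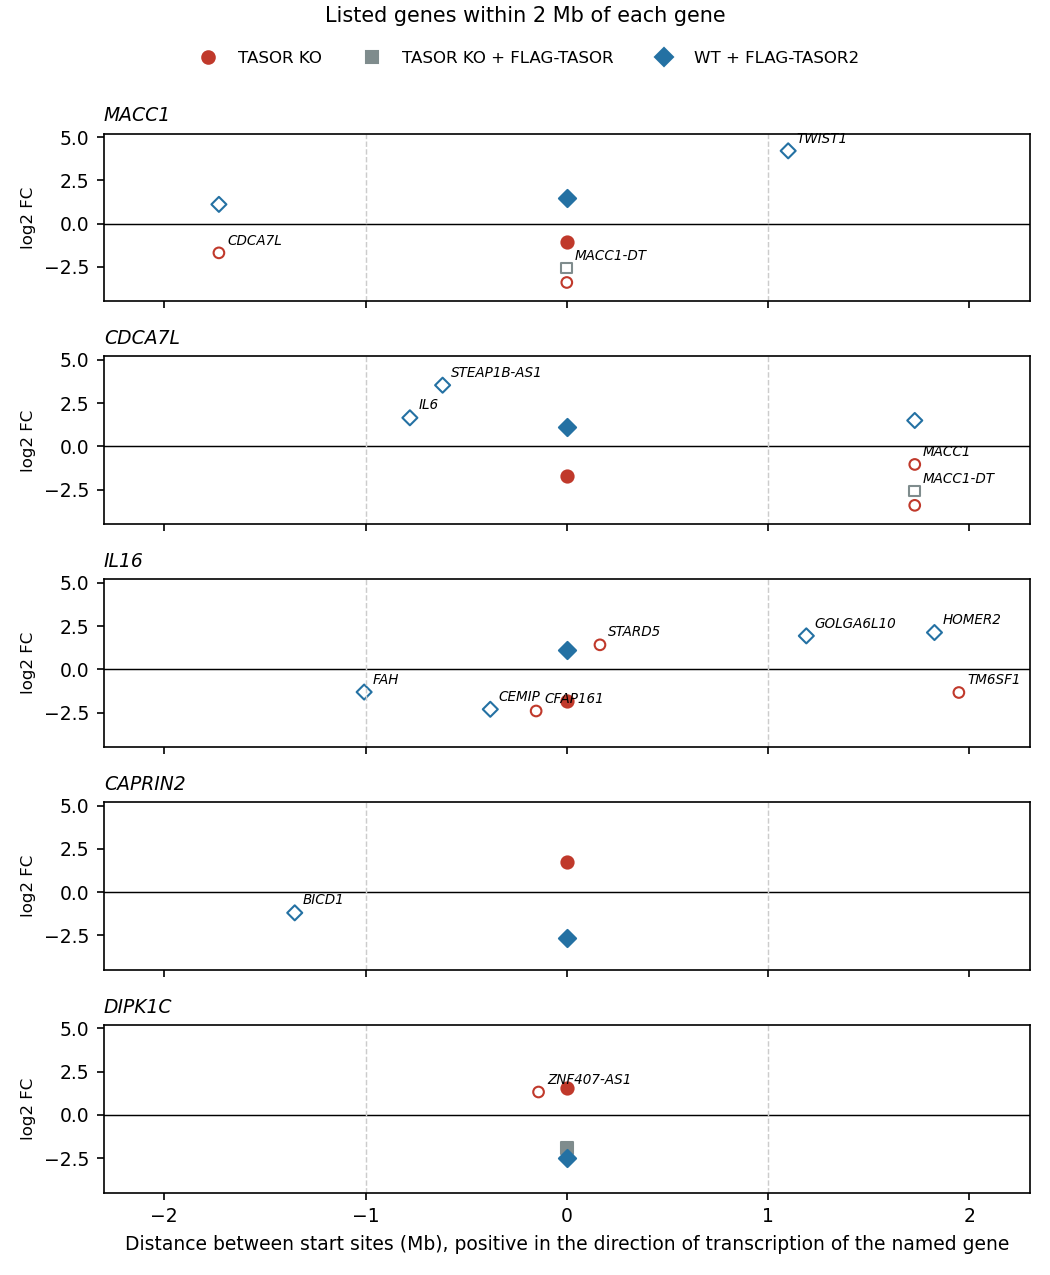
Log2 fold change (y axis) of genes listed within 2 Mb of each of the 5 genes, against the distance between start sites in Mb (x axis), with filled symbols for the gene itself, open symbols for neighbours and dashed lines at 1 Mb. MACC1 and CDCA7L appear in each other's panel with opposite signs in the 2 tables, and CAPRIN2 has no neighbour inside the dashed lines.

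The stretch upstream of the annotated start is shown for 4 of the 5 genes, to set their CpG content beside their direction. The sequences are from RefSeq (GRCh38.p14), lie within the 250 bases before the start without bases that GENCODE 29 places in an exon, and read 5′ to 3′ on the strand of the gene. Capitals mark CpG dinucleotides. The MACC1 stretch (chr7:20217405-20217576, minus strand) is the whole gap between MACC1 and MACC1-DT. The CDCA7L stretch is chr7:21946085-21946149, minus strand. The IL16 stretch (chr15:81199226-81199475, plus strand) precedes one of its annotated starts, and the DIPK1C stretch is chr18:74457309-74457558, minus strand. These last stretches lie within GENCODE gene models that begin further upstream.
MACC1: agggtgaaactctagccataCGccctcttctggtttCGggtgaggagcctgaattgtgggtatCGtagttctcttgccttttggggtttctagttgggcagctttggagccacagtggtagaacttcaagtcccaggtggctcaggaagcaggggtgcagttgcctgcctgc
CDCA7L: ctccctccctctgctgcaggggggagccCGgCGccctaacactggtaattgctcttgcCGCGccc
IL16: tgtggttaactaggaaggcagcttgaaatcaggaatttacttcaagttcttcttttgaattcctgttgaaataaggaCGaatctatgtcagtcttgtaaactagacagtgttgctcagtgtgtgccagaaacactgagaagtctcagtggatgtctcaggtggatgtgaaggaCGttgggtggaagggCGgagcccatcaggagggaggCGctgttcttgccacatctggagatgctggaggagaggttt
DIPK1C: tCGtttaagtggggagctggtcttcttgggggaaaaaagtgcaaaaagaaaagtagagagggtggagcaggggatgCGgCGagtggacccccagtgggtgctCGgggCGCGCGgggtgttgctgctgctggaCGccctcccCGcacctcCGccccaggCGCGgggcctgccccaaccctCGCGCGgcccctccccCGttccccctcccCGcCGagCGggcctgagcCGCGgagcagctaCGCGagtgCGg

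In the full 250 bases before the start, CDCA7L had 26 CpG dinucleotides and MACC1 had 4. Of these bases, 185 lie in GENCODE exons for CDCA7L and 66 for MACC1. The CDCA7L stretch shown holds 4 of its 26 CpG, and the MACC1 stretch 3 of its 4. IL16 had 4 and 8 at its 2 starts, and DIPK1C had 24. Over 35116 RefSeq promoters the median was 11, with quartiles of 3 and 23. Counted over 250 bases, the 3 genes lower in the knockout and higher with FLAG-TASOR2 include a CpG-rich start and starts below the median. DIPK1C, which went the other way, has a CpG-rich start. Neither the E-box CACGTG, a motif bound by MYC and MAX that reads the same on both strands, nor the GATA motif AGATAA on either strand was found in these 5 windows. They occur in 6.34% and 9.17% of all promoters of this length. An absence says only that these letters are not in the window.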

How the data were processed

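Ribosomal RNA-depleted total RNA of K-562 cells was sequenced in 8 libraries. The submitters' processing notes name the hg38 build, the aligner STAR 2.7.8, Salmon, DESeq2 and edgeR, with no role for each. Per the file headers, the 3 deposited tables hold per gene the log2 fold change, the log2 mean level, the F score and the p-value, unadjusted and adjusted. The authors' column names match edgeR's quasi-likelihood test. No model was refitted. The depth of each library cannot be read from the tables. The labels do not say that the 2 libraries of a group came from separate clones, so a p-value here reflects library-to-library spread, which may be technical.

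The approximate SE is the size of the log2 fold change over the root of F. The control level is 2 times the mean CPM divided by 1 plus the fold change. The altered level is the control level times the fold change. The simulated data used to check both were built with the same definitions. That check therefore covers the arithmetic alone, not how the deposited values were made. The number of genes tested was the adjusted p of the first gene over its unadjusted p, or, for FLAG-TASOR, the largest row number kept in the table, a lower bound. Genes were matched by Ensembl identifier to GENCODE 29 (257 of 268 listed genes for the knockout, 253 of 261 for FLAG-TASOR and 853 of 884 for FLAG-TASOR2). Python 3.11.15, pandas 2.3.3 and scipy 1.17.1 were used.

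The genes and the gene lists were chosen with earlier results of these data known. Named genes were the 5 genes, the other genes of opposite sign, the nearest gene to each, listed neighbours within 1 Mb, listed pathway members, TASOR and TASOR2. The result of 1 named gene is not reported here. Genes of an adjusted p below 0.05 would have been called changed. Alternatives covered limits on fold change, p, level and gene class, the window, the source of the control level and the measure of likeness.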

Additional observations from a re-analysis of the deposited data

How the results depend on the processing

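The count of 14 genes of opposite sign was 13 with a mean log2 level of at least 2 in both tables (DIPK1C left out) and 13 with protein-coding genes only (all 5 genes kept). It was 5 at an absolute log2 fold change of at least 1.5 in both tables, with CAPRIN2 and DIPK1C kept, 1 at a limit of 2, and 3 at an unadjusted p below 0.01 in both, with none of the 5 genes kept under either (0 genes). These limits leave fewer genes by construction. The 9 listings of neighbours within 1 Mb, summed over tables, became 6 within 500 kb and 20 within 2 Mb. The control level of DIPK1C was 3.30 CPM from the knockout table and 4.49 CPM from the FLAG-TASOR2 table, a log2 shift larger in size than the approximate SE of its knockout change (0.43) and smaller than those of its FLAG-TASOR2 (0.65) and FLAG-TASOR (0.59) changes, and the cause was not tested. For each of the other 4 genes the shift was smaller than the approximate SE of its own knockout change, though for CDCA7L it was larger than that of its FLAG-TASOR2 change (0.32). The control libraries are the same in each table, so an SE does not measure these shifts. By SE-scaled distance, 1 of the 5 nearest genes was the same. No paired analysis was possible because the deposited tables hold no value per library, and for the same reason no library could be left out in turn. Depth per library is unknown, so no detection limit is given.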

Other observations

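Of the other 9 genes of opposite sign between the knockout and FLAG-TASOR2 tables, 8 are given by their values in the authors' deposited tables, knockout first. CT47A12, a cancer-testis antigen gene of a multicopy family on chromosome X, had the widest distance of the 14, with log2 fold changes of 2.93 (approximate SE 0.65) and -3.48 (0.71) in the authors' deposited tables. Its derived levels were 90.6 CPM in the knockout and 1.06 CPM with FLAG-TASOR2, against 11.9 CPM in controls from either table. Reads of its near-identical copies could be split among them.

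UNC5B, a netrin receptor gene, was at 1.501 (approximate SE 0.32) and -1.97 (0.30) in the authors' deposited tables. FOXH1, a transcription factor gene of the nodal and activin pathway, was at 1.31 and -2.98, RALGAPA2 at 1.34 and -2.03, and the zinc finger gene ZNF32 at 1.03 and -1.43 in the authors' deposited tables. The other way were MS4A3, a gene of the myeloid lineage, at -1.96 (approximate SE 0.42) and 2.24 (0.41), the zinc finger gene ZNF257 at -1.60 and 1.47, and LINC00534 at -1.05 and 1.37 in the authors' deposited tables. MS4A3 was the 1 gene of the 9 listed with FLAG-TASOR, at -2.40 in the authors' deposited table, the same sign as in the knockout. DIPK1C, also listed in all 3 tables, had the sign of the FLAG-TASOR2 table there. The distance between the altered groups ranged from 2.42 to 6.41 in size on the log2 scale for the 9 genes, and from 2.54 to 4.37 for the 5. The listing limit and the opposite signs set a floor under both ranges.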
